A study of Mus musculus with 26 samples.

Results

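The caput of the epididymis and its initial segment (IS) were compared within ArKI mice, a knock-in line that cannot attach SUMO to the product of the targeted gene, and each segment difference was set beside the same difference in WT mice. The members are the 5 ArKI IS and the 5 ArKI caput samples, 10 of the 26 samples in the series, and every gene counted in them. ArKI males carry a germline allele in which both SUMO-acceptor lysines of the encoded protein are changed to arginine, so that every cell of the body carries the mutation. The line came from targeted 129S6B6F1 embryonic stem cells, with the selection cassette removed, and was bred with C57BL/6N mice. All groups used here share the C57Bl/6N; 129 hybrid background, an age of 3 months, no treatment and 1 sequencing batch. The WT groups, 5 IS and 5 caput samples from WT males, carry the unchanged allele. Each sample was RNA from a whole dissected segment. The methods give 5 mice of each genotype as the source of both segments, so IS and caput share mice, but which samples share a mouse is not given and the fit took all samples as independent. A segment therefore holds principal, basal, narrow and clear, muscle, vessel and immune cells as well as luminal sperm, and fewer cells of a type cannot be told apart from less RNA per cell.

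The epididymis is a single long coiled duct in which sperm leaving the testis through the ciliated efferent ducts become motile and able to fertilise. Its epithelium is divided into segments that each secrete their own set of proteins into the lumen, with lipocalins, cystatins, defensins and protease inhibitors among the best known. The IS, next to the efferent ducts, depends on the receptor tyrosine kinase ROS1, on ERK signalling and on factors that arrive in testicular fluid, whereas the caput depends mainly on androgen. SUMO is a small protein that is attached to lysines of other proteins, many of them nuclear, and changes how they act.

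Total counts ranged from 5829074 to 8365852 in ArKI IS and from 4125768 to 11913469 in ArKI caput, with caput replicate 2 the shallowest. The dissected segments matched the IS and caput marker lists only in part. Of 10 tested IS markers, 7 were higher in ArKI IS, among them Lcn8, Cst8, Ovch2 and Etv4, but Ggt1 and Slc9a4 were higher in caput, with IS minus caput differences of -2.90 and -1.29 on the log2 scale. Among 8 tested caput markers, Lcn5 was higher in caput, whereas Lcn9, Cst11, Rnase10 and Defb48 were higher in IS and Gpx5, Crisp1 and Adam7 were not called. WT gave the same counts of markers higher in IS, 7 and 4, and 1 IS marker, Ggt1, was higher in WT caput.

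Several libraries stood apart. ArKI IS replicate 3 had the highest level of its group for 107 of the 137 genes whose difference widened towards IS (78.1%, against 39.3% of the genes kept higher in IS and 21.8% of all genes) and for the efferent duct and ciliated cell markers. ArKI caput replicate 2 had the highest sums of smooth muscle, fibroblast and macrophage markers in its group, and was the highest caput sample for 41.0% of the 61 genes whose difference widened towards caput, against 28.3% of all genes. ArKI caput replicate 3 carried the most IS transcript, being the highest caput sample for 44.0% of the genes kept higher in IS. Spearman correlations between replicates were 0.984 to 0.994 in ArKI IS and 0.982 to 0.995 in ArKI caput, against 0.876 to 0.926 between the segments. Overlaps of exons were taken from the GENCODE annotation, whereas the reads had been counted on RefSeq genes. Whether counting used strand is not given. Reads of a gene thus could not be told apart from those of a gene whose exons overlap it on the other strand. Of the genes named below this holds for 5830403L16Rik, Tecta, St8sia5, Defb15, Runx2, Odz4, Tead2, Eng, Ccdc48, Hydin, 4933430H15Rik, Vwa3a, Ubxn10, Cftr, Ephb1, Sp6, Cacna1h, Gstm5, Oaz3, Krt5 and Pdgfra as well as for Wfdc6b and 5730457N03Rik, and Srd5a1 and Hoxd10 overlap another gene on their own strand.

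A gene was called when its difference exceeded 2-fold at a Benjamini-Hochberg adjusted p below 0.01 in edgeR's quasi-likelihood test, fitted to all 20 epididymal samples at once over 14329 genes. Differences are given as IS minus caput on the log2 scale, so positive values are higher in IS. In ArKI mice 1381 genes were higher in IS (9.64% of those tested) and 1453 were higher in caput (10.1%). For 2641 of these 2834 genes all 5 samples of one segment lay above all 5 of the other. Over all tested genes the segments did not overlap for 24.3% with IS higher and for 24.1% with caput higher. In WT mice 1464 genes were higher in IS (10.2%) and 1632 in caput (11.4%). The same direction was called in both genotypes for 2196 genes, which is 77.5% of the ArKI calls and 70.9% of the WT calls. Across all tested genes the ArKI and WT differences correlated with a Spearman's rho of 0.852 and a Pearson's r of 0.893, given as a description because genes are not independent replicates.

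Whether a difference changed with genotype was tested by the interaction, the ArKI segment difference minus the WT one. It was called towards IS for 264 genes (1.84% of those tested) and towards caput for 180 (1.26%). A difference was termed kept when it was called in both genotypes in 1 direction and the interaction was not called, narrowed or widened when the interaction made it smaller or larger in ArKI, and reversed when it was called in opposite directions. Kept differences numbered 2078, with 989 higher in IS and 1089 in caput. Kept means that no change was called and not that the difference was equal. Narrowed differences numbered 181, of which 127 were no longer called in ArKI, and 83 had been higher in IS and 98 in caput in WT. Widened differences numbered 198, of which 134 were called only in ArKI, with 137 towards IS and 61 towards caput. There were 16 reversed genes. A further 1245 genes were called in 1 genotype, 488 in ArKI and 757 in WT, with no interaction call, and 1201 of these had the same sign in both genotypes, so a difference between genotypes was not shown for them.

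**Figure D1:**
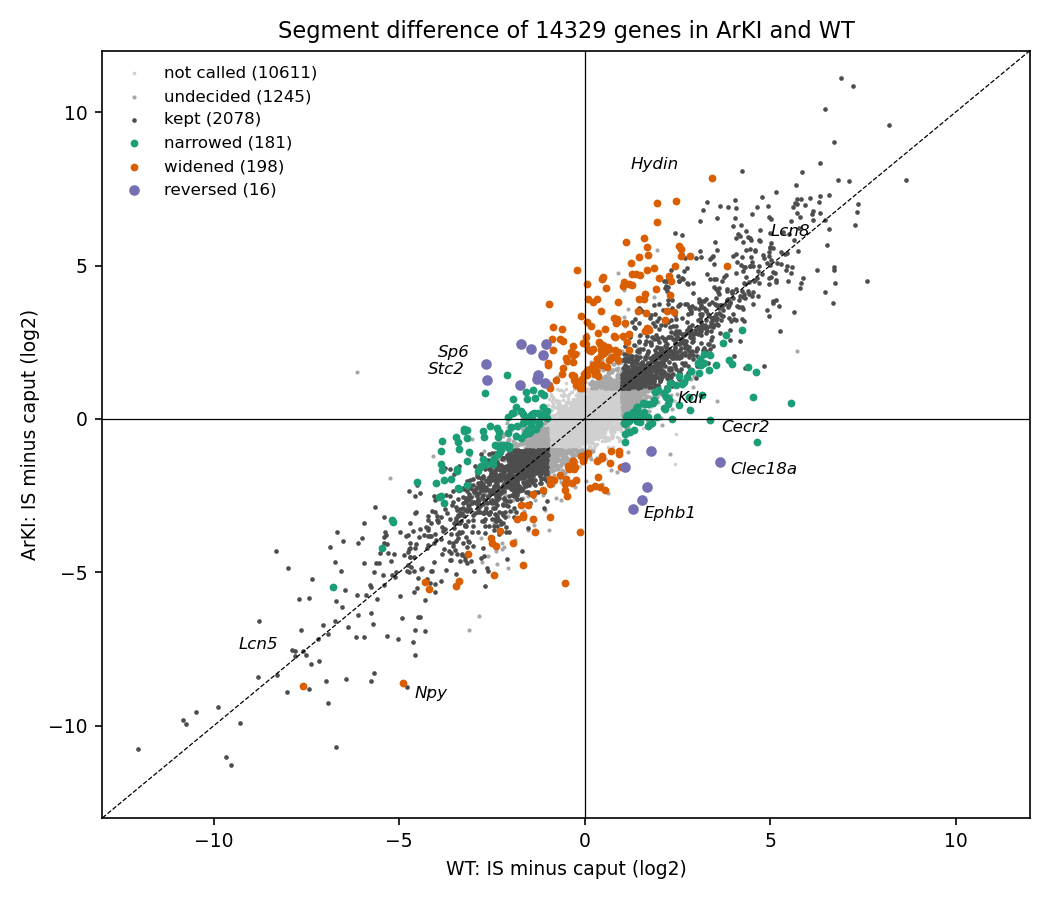
IS minus caput difference (log2) of each of 14329 tested genes in WT (horizontal) and ArKI (vertical), coloured by whether the difference was kept, narrowed, widened or reversed. Most points lie along the diagonal, with 2078 kept genes, 181 narrowed, 198 widened and 16 reversed.

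Genes close to the 2-fold limit can lose a call with little change, and the share called again in the other genotype followed the size of the difference. Of the genes higher in WT IS by 2- to 4-fold, 56.6% of 864 were also called in ArKI, rising to 92.8% of 430 at 4- to 16-fold, 97.1% of 140 at 16- to 64-fold and 100% of 30 above 64-fold. For genes higher in WT caput the shares were 57.5% of 978, 85.6% of 493, 98.2% of 109 and 98.1% of 52. Towards IS, 328 of the 864 at 2- to 4-fold and 16 of the 430 at 4- to 16-fold were called in WT alone with no interaction call. Narrowed differences numbered 42 of 864 towards IS and 42 of 978 towards caput at 2- to 4-fold, and 35 of 430 and 51 of 493 at 4- to 16-fold. Read from the ArKI side, 66.5% of 732 and 83.5% of 418 genes higher in IS by 2- to 4-fold and by 4- to 16-fold were also called in WT. For genes higher in ArKI caput the shares were 69.3% of 880 and 91.8% of 404. Each ArKI sample was placed on a WT scale, on which the WT caput mean is 0 and the WT IS mean is 1, by the median over the 3096 genes called in WT. ArKI IS samples lay at 0.971, 0.909, 0.994, 0.983 and 0.938, and ArKI caput samples at 0.0344, 0.0782, 0.105, 0.0564 and 0.0377. The genes were chosen for their difference in the WT samples that set the scale, which by itself draws other samples inside the span, so the positions are a description only. IS replicate 2 and caput replicate 3 lay the farthest from the WT mean of their segment.

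**Figure D2:**
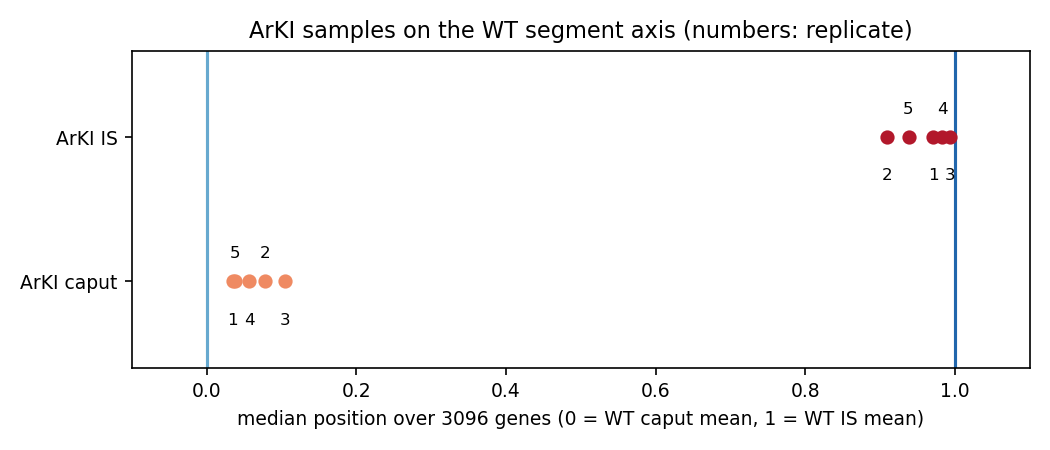
Position of each ArKI sample on the WT segment scale (horizontal; 0 is the WT caput mean and 1 the WT IS mean), as a median over 3096 genes called in WT. The 5 IS samples sit between 0.909 and 0.994 and the 5 caput samples between 0.0344 and 0.105.

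The genes with the most reads in the ArKI epididymis encode secreted and sperm-coating proteins. Gpx5, the epididymal glutathione peroxidase, led both segments, with 51080, 59870, 36680, 47080 and 49620 CPM (counts scaled to library size by TMM, replicates 1 to 5) in IS and 46770, 32830, 60510, 49730 and 47800 CPM in caput. The ranges overlapped and no difference was called (0.04 ± 0.14, SE, n = 5 and 5, adjusted p = 0.81). Adam7, a sperm-binding membrane protein of the ADAM family, was at 23310, 23570, 19540, 21100 and 21190 CPM in IS and 15940, 12800, 18360, 16800 and 15650 CPM in caput. IS was higher without overlap, but by 0.45 ± 0.07 (adjusted p = 6.7e-06), under the 2-fold limit. Clu, which encodes the secreted chaperone clusterin, separated the segments: it measured 1210, 2487, 785, 1259 and 1637 CPM in IS and 30330, 27670, 29830, 32140 and 28600 CPM in caput. Its difference was -4.33 ± 0.26 (adjusted p = 1.2e-10) in ArKI and -4.75 in WT.

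A pair of lipocalins, carriers of small lipophilic molecules, marked opposite ends. Lcn8 was at 9221, 9361, 9952, 11480 and 9371 CPM in ArKI IS and 28.3, 68.9, 376, 165 and 52.2 CPM in ArKI caput, where replicate 3 was the highest. Its difference of 6.15 ± 0.92 (adjusted p = 1.6e-05) stood beside 4.72 in WT. DESeq2 gave a like difference of 6.16 in ArKI but no adjusted p. Lcn5, at 49.1, 89.5, 39.99, 56.7 and 70.8 CPM in IS and 14090, 10130, 13070, 14200 and 12150 CPM in caput, had the opposite pattern without overlap. It differed by -7.70 ± 0.25 (adjusted p = 1.5e-14) in ArKI and by -7.52 in WT.

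Some genes were read in a single ArKI segment. No read was found in any ArKI caput sample for 19 genes called higher in IS, and in no ArKI IS sample for 10 called higher in caput. Their folds are bounds against 3 counts summed over the 5 libraries of the empty segment, covering counting error only. Iyd, the iodotyrosine deiodinase (chr10:3540274-3554880 in GRCm38), was at 26.1, 17.4, 61.3, 23.6 and 33.4 CPM in ArKI IS and 0 in every sample in ArKI caput, at least 521-fold higher in IS. Hnf4a, a nuclear receptor transcription factor of endodermal epithelia and kidney (chr2:163506811-163572907), was at 22.7, 12.9, 48.6, 24.4 and 28.1 CPM in IS and 0 in every sample in caput, at least 438-fold higher. Both were highest in IS replicate 3, and WT IS held 4.58 to 8.01 CPM of Iyd and 9.41 to 15.7 CPM of Hnf4a. 2410004P03Rik was likewise at least 180.1-fold higher in IS.

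The other genes named for the size of their difference towards IS, among those at 10 CPM or more, had a few caput reads. Tecta, which encodes a matrix protein best known from the inner ear (chr9:42329622-42401690), was at 40.9, 31.5, 41.7, 39.6 and 39.8 CPM in IS and 0, 0, 0.177, 0.0854 and 0.165 CPM in caput. Its difference was 8.34 ± 0.73 (adjusted p = 2.1e-08), and WT IS was higher still, at 215 to 351 CPM. Ntsr1, the neurotensin receptor (chr2:180499976-180544979), was at 26.3, 20.4, 25.6, 25.6 and 27.3 CPM in IS and 0, 0, 0.177, 0.256 and 0.165 CPM in caput, differing by 7.28 ± 0.53 (adjusted p = 1.2e-09). WT IS held 119 to 162 CPM of it, so the separation of the segments remained in ArKI at a lower IS level. 5830403L16Rik, now named Teddm2, of a family of epididymal membrane proteins, was at 3803, 3167, 4057, 4171 and 3814 CPM in IS and 10.5, 6.45, 51.3, 15.8 and 7.92 CPM in caput, with caput replicate 3 again apart. Exons of Glul, which encodes glutamine synthetase, overlap it on the other strand. It differed by 7.64 ± 0.91 in ArKI and 5.70 in WT, and DESeq2 gave 7.69 in ArKI without an adjusted p. Sntn, a protein of motile cilia, and Tmem212 had count ratios of IS to caput of 360.2 (95% exact counting interval 99.2 to 2982) and 274 (93.3 to 1332).

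Towards caput, AY761185, BC048679 and Spint4 had the largest differences. AY761185 (chr8:20943694-20944748) was at 0.264, 0.422, 0.286, 0 and 0.945 CPM in ArKI IS and 1086, 1445, 742, 1140 and 976 CPM in ArKI caput, a difference of -11.29 ± 0.40 (adjusted p = 8.3e-14). BC048679, at 0, 1.26, 0.143, 0 and 1.06 CPM in IS and 1089, 1266, 959, 1239 and 1058 CPM in caput, differed by -11.02 ± 0.42 (adjusted p = 2.4e-13). Serpina1f, a serpin of the epididymis (chr12:103688044-103695529), rose from 0.924, 6.89, 1, 0.853 and 5.199 CPM in IS to 2867, 3148, 2599, 3224 and 2884 CPM in caput. It differed by -9.90 ± 0.52 (adjusted p = 1.8e-11). None of these 3 genes overlapped between segments, which the rule that named them required, and every one of the 5 caput samples was high. Muc5b, a gel-forming mucin (chr7:141839059-141873089), was at 0.66, 1.97, 2.71, 1.02 and 3.54 CPM in IS and 1588, 1177, 1204, 1549 and 1421 CPM in caput, differing by -9.40 ± 0.33 (adjusted p = 4.8e-14), beside -9.87 in WT. Rnase13, of the ribonuclease A family, was at 1.06, 1.26, 0, 0.171 and 1.18 CPM in IS and 433, 264, 365, 412 and 408 CPM in caput, differing by -8.90 ± 0.32 (adjusted p = 9.5e-14). These 5 genes kept their segment difference without an interaction call.

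Another set of caput genes varied much more between replicates. Spint4, a Kunitz-type protease inhibitor (chr2:164698501-164702448), was at 0.132, 0, 0, 0 and 0.354 CPM in IS and 212, 365, 5.41, 100.5 and 411 CPM in caput. Caput replicate 3, the sample with the most IS transcript, was the lowest, and the difference of -10.75 ± 2.29 (adjusted p = 5.5e-04) was no longer called by limma voom. Wfdc13 (-9.94), Gm14316 (-9.80; now Spint5) and Defb23 (-9.56), inhibitors and a defensin, also lost their call with voom. St8sia5, a sialyltransferase, was at 0 in every sample in IS and at 26.04, 37.3, 10.02, 22.03 and 29.02 CPM in caput, at least 275-fold higher in caput.

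Of 10 tested lipocalins 6 were higher in ArKI IS and 3 in ArKI caput, as in WT. Lcn9 (5.92) and Lcn3 (5.85) were, after Lcn8, the largest towards IS. Lcn6 was not called in either genotype, at 0.63 in ArKI and -0.58 in WT, yet had an interaction of 1.21 ± 0.29 (adjusted p = 0.0082). This call was lost in 14 of the 20 fits that left out a sample, and with the replicate number as a block (1.24, adjusted p = 0.063). Of 8 cystatins, inhibitors of cysteine proteases, 5 were higher in IS and 0 in caput in each genotype, led in ArKI by Cst12 (6.71) and Cst8 (5.91). Beta-defensins, antimicrobial and sperm-coating peptides, pointed mainly the other way. Of 27 tested, 18 were higher in ArKI caput and 4 in ArKI IS, against 17 and 2 in WT. Defb39 (-7.53) and Defb15 (-7.01) were among those higher in caput, and Defb48 (7.18) was higher in IS. Their median difference was -3.01 in ArKI and -2.71 in WT, against -0.0121 and 0.000626 over all tested genes. No member of the cystatins or beta-defensins had an interaction call. Copies within the defensin and Wfdc families are similar in sequence, and only uniquely mapped reads were counted, so low members may be undercounted.

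Among the 12 Spink and Spint serine protease inhibitors, 7 were higher in caput and 0 in IS in each genotype, with Spink11 (-8.36) and Spink2 (-7.88) next after the Spint genes. Their median difference was -2.86 in ArKI and -3.7 in WT, with no interaction call. Their caput sum was lower in ArKI, at 9851 to 12290 CPM against 13460 to 17680 CPM in WT, without overlap. In IS the sums overlapped, at 831.3 to 1556 CPM in ArKI and 1142 to 1555 CPM in WT. WAP domain inhibitors, a clustered family of whey acidic protein type, were the secretory family with the most interaction calls, 5 of 16. Of these 16, 7 were higher in ArKI caput and 1 in ArKI IS, against 6 and 3 in WT. Wfdc16 was at 22.4, 22.4, 17.99, 18.4 and 22.7 CPM in IS and 68.4, 147, 62.4, 73.3 and 80.2 CPM in caput, with caput replicate 2 far above the rest. Its segments did not overlap, and the ArKI difference of -2.003 stood beside -0.23 in WT, with an interaction of -1.78 ± 0.32 (adjusted p = 8.8e-04). Expi, now Wfdc18, lost its IS excess, from 4.64 in WT to -0.74 in ArKI (interaction -5.38 ± 1.16, adjusted p = 0.0027). Wfdc3 lost its caput excess, from -2.71 to -0.60 (interaction 2.11 ± 0.44, adjusted p = 0.0014). Wfdc6b, whose exons overlap those of Wfdc8 on the other strand, went from -4.20 in WT to -5.54 in ArKI.

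Of 32 other sperm maturation proteins, 13 were higher in ArKI caput and 5 in ArKI IS, against 15 and 5 in WT. Rnase9 (-8.40) and Adam28 (6.04) led the 2 directions after the genes above. Prom2, a pentaspan membrane glycoprotein of epithelia, was at 224, 274, 155, 207 and 241 CPM in IS and 1575, 1476, 1503, 1574 and 1588 CPM in caput without overlap. Its difference widened from -1.73 in WT to -2.81 ± 0.10 in ArKI (interaction -1.08 ± 0.13, adjusted p = 7.8e-06), a change that fell under the 2-fold limit without IS replicate 3. Bsph1, a binder of sperm membranes, narrowed from -3.78 to -2.75 (interaction 1.03 ± 0.18, adjusted p = 6.6e-04), a call that 4 of the 20 fits without a sample lost.

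The ROS1 and ERK pathway, on which the IS depends, had equal counts of called genes in both genotypes, though not in all cases the same genes. Of 27 tested members 14 were higher in IS and 1 in caput in ArKI as in WT, and none had an interaction call. In all, 12 were called in both genotypes, 3 in ArKI alone and 3 in WT alone. The single caput calls, of Fgfr2 in ArKI and Myc in WT, lay close to 2-fold and were lost in 5 and 3 of the 20 fits that left out a sample. With no fold limit 18 and 2 were called in ArKI and 21 and 4 in WT. The ERK-induced transcription factors Etv4 (4.76) and Etv5 (4.09), the early response gene Ier3 (3.23) and the ERK phosphatase Dusp6 (3.10) were the largest. The pathway's median was 1.36 in ArKI and 1.24 in WT. Ros1 itself was not called in ArKI, with a difference of 0.72 ± 0.05 and means of 624 CPM in IS and 380.1 CPM in caput.

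Of 31 tested epididymal transcription factors 9 were higher in ArKI IS and 5 in ArKI caput, against 8 and 7 in WT. Over all tested genes the shares were 9.64% and 10.1% in ArKI and 10.2% and 11.4% in WT. The interaction was called towards IS for 1 of the 31, Sp6, and towards caput for 2, Nkx6-1 among them. With voom 0 were called towards caput. Elf5, an epithelial ETS factor (-9.25), was the largest towards caput. Sall1 (5.81), a zinc finger factor of urogenital development, and Runx2 (4.39), best known from bone, followed Hnf4a towards IS. Of 30 tested Hox genes, which set position along the body axis, 9 were higher in ArKI IS and 4 in ArKI caput. In WT the counts were 8 and 3, and no interaction was called. The counts towards caput lay near the share over all tested genes. Hoxb1 (3.999), Hoxd10 (2.99) and Hoxa9 (2.69) were higher in IS and Hoxc9 (-3.99) in caput.

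**Figure D3:**
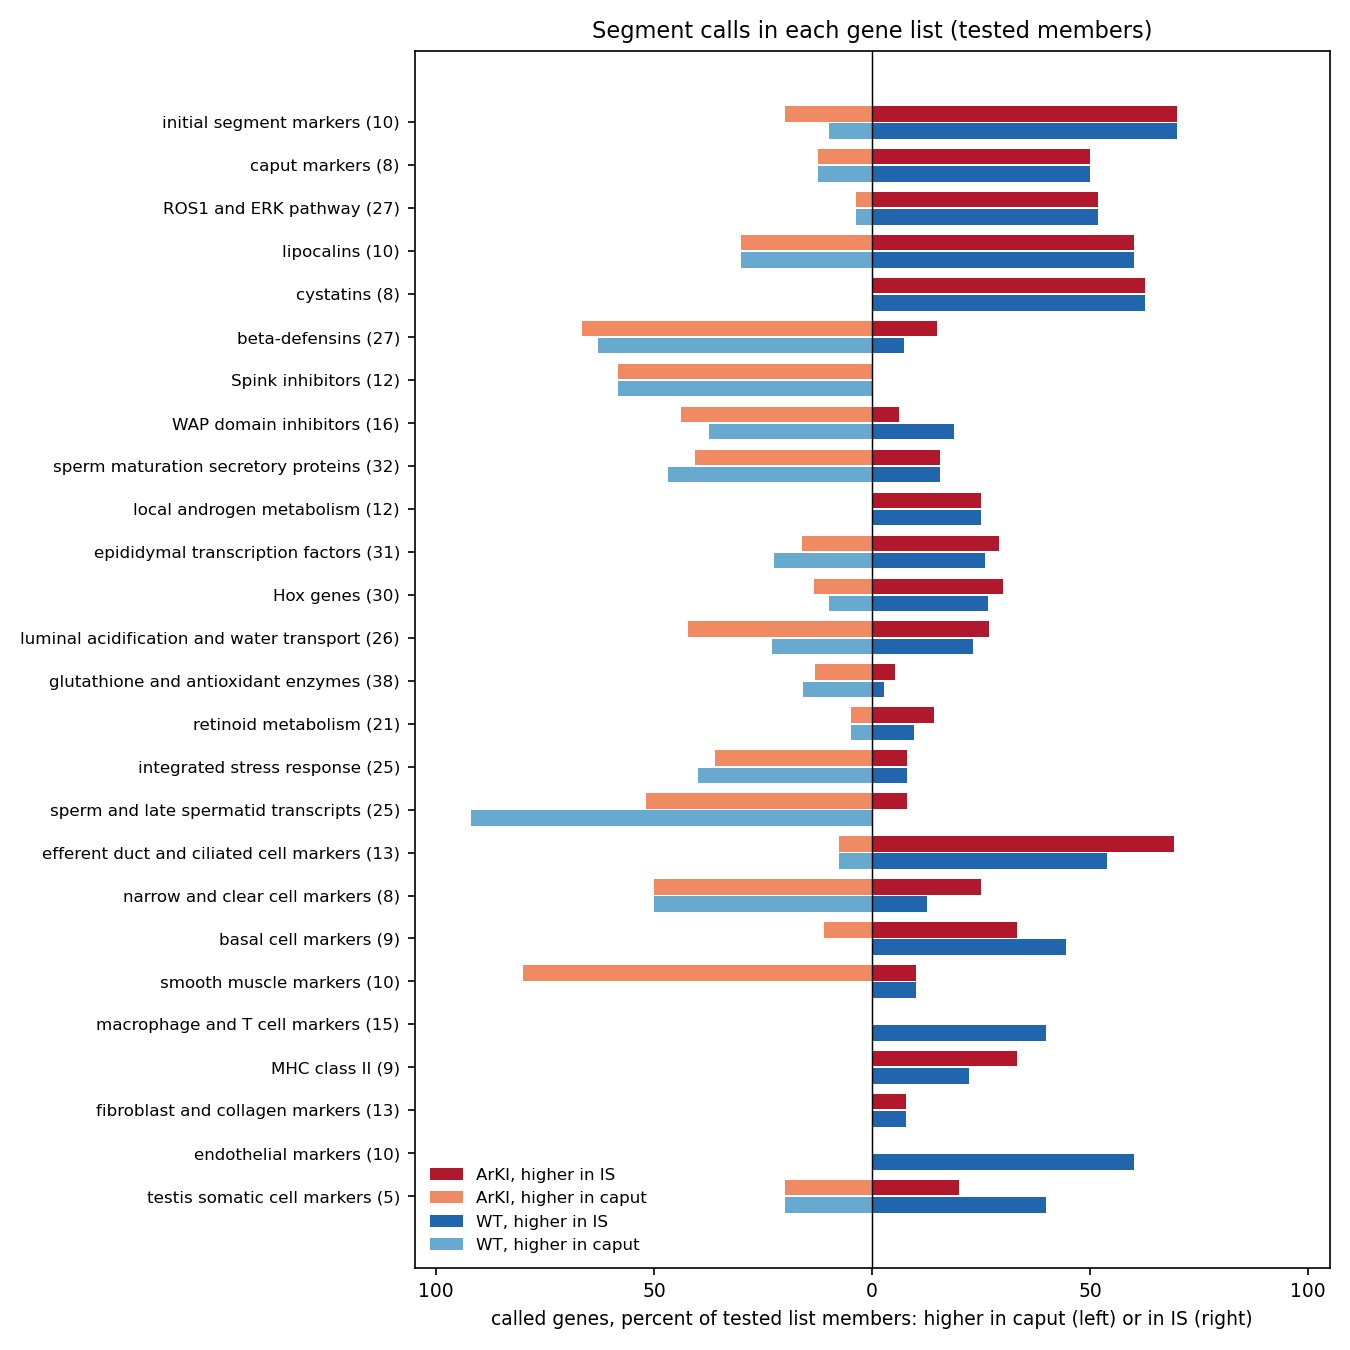
Percent of tested members of gene lists called higher in caput (bars to the left of 0) or in IS (bars to the right), in ArKI and in WT; the number of tested members stands in brackets. The ROS1 and ERK pathway has equal bars in both genotypes, with 12 members called in both, whereas the smooth muscle list has 8 of 10 members called higher in caput in ArKI and 0 of 10 in WT, or 9 and 4 with no fold limit.

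Differences that narrowed in ArKI did so in 2 ways, by a lower level in the segment that was high in WT or by a higher level in the one that was low. Over the 83 genes that were higher in IS in WT, the median ArKI minus WT difference was -0.696 in IS and 0.679 in caput, and the change was the larger one in IS for 41. Cecr2, a chromatin remodelling factor (chr6:120666314-120771191), is a case of the former. It was at 1.58, 2.53, 2.29, 2.22 and 2.01 CPM in ArKI IS and 1.81, 2.77, 1.77, 2.31 and 2.39 CPM in ArKI caput, which overlap, while WT IS held 26.4 to 29.4 CPM and WT caput 1.53 to 3.74 CPM. Its difference was -0.03 ± 0.21 in ArKI and 3.39 in WT, an interaction of -3.42 ± 0.26 (adjusted p = 7.5e-10).

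Faim3, now Fcmr, the IgM Fc receptor (chr1:130865777-130880790), showed the opposite course. It was at 12.8, 11.95, 10.3, 10.1 and 10.5 CPM in ArKI IS and 7.84, 9.68, 5.58, 6.83 and 5.36 CPM in ArKI caput, against 6.47 to 11.8 and 0.234 to 0.616 CPM in WT IS and caput, so the ArKI caput samples were all above the WT caput samples. The difference of 4.54 in WT became 0.71 ± 0.16 in ArKI (interaction -3.83 ± 0.33, adjusted p = 1.3e-08). Nkx6-1, a homeodomain factor known from pancreatic islets, was at 22.6, 18.4, 25.99, 21.7 and 16.7 CPM in ArKI IS and 19.1, 16.8, 15.4, 20.1 and 14.2 CPM in ArKI caput and at only 0.424 to 1.67 CPM in WT IS. Both ArKI segments were thus far above WT, and the WT difference of 2.83 became 0.30 ± 0.15 (interaction -2.53 ± 0.55, adjusted p = 0.0021), a change that voom did not call. Tead2, a Hippo pathway transcription factor, was at 29.1, 25.6, 22.99, 26.5 and 27.5 CPM in ArKI IS and 43.5, 50.5, 33.2, 50.5 and 44.3 CPM in ArKI caput. Caput was higher without overlap in ArKI (-0.74 ± 0.09, under the 2-fold limit), while IS was higher in WT (1.09), an interaction of -1.83 ± 0.13 (adjusted p = 5.0e-10). Odz4 (now Tenm4, -3.06), Dkkl1 (-1.98), Alox12e (-1.90) and Dock10 (-1.84) completed the 8 genes with the largest interactions of this kind among those at 10 CPM or more in a group.

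Among 10 endothelial markers, 3 narrowed with an interaction call, namely Kdr, Flt1 and Eng. In all 6 of the 10 were higher in WT IS and 0 were called in ArKI, with median differences of 1.14 and 0.339. Kdr, the main VEGF receptor (chr5:75932827-75979072), was at 23.8, 21.9, 34.3, 24.2 and 25.5 CPM in ArKI IS and 15.7, 23.3, 13.3, 14.4 and 15.1 CPM in ArKI caput, and the segments overlapped by replicate 2 of each. WT IS held 34.4 to 43.7 CPM and WT caput 6.95 to 10.4 CPM. The difference fell from 2.20 in WT to 0.72 ± 0.13 in ArKI (interaction -1.47 ± 0.19, adjusted p = 1.1e-05). Flt1, another VEGF receptor, was at 13.7, 11.8, 10.4, 8.19 and 10.3 CPM in ArKI IS and 8.92, 8.53, 8.599, 7.17 and 6.43 CPM in ArKI caput, against 27.2 to 32.5 CPM in WT IS. The ArKI segments overlapped, and its interaction was -1.21 ± 0.16 (adjusted p = 6.9e-06). Eng, a TGF-beta co-receptor of endothelium, was at 29.6, 24.5, 22.99, 23.4 and 24.8 CPM in ArKI IS and 18.9, 28.1, 20.3, 19.6 and 16 CPM in ArKI caput, with an interaction of -1.07 ± 0.16 (adjusted p = 4.3e-05) that was lost without caput replicate 2. The summed level of the list was 159.7 to 185.9 CPM in ArKI IS, 131.8 to 179.1 in ArKI caput, 239.6 to 286.2 in WT IS and 146.4 to 153.5 in WT caput. With no fold limit 5 of the 10 were called higher in ArKI IS and 9 in WT IS, 1 was higher in caput in each genotype, and 6 had an interaction call.

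Macrophage and T cell markers had no interaction call, so no difference between the genotypes was shown for them. Of 15 tested, 6 were higher in WT IS and 0 in ArKI IS, with medians of 0.97 and 0.364, but the WT count ranged from 4 to 9 when single samples were left out. Their sum was 284.3 to 382.4 CPM in ArKI IS and 216.4 to 367.9 CPM in ArKI caput, where replicate 2 was the high value, against 320.6 to 455.1 and 173.5 to 235.1 CPM in WT.

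In the other direction, 98 genes narrowed that were higher in WT caput, with a median ArKI minus WT difference of 0.651 in IS and -0.739 in caput. Kcnc4, a voltage-gated potassium channel (chr3:107438298-107460287), was at 29.3, 28.7, 21.6, 22.02 and 26.1 CPM in ArKI IS and 57.6, 52.1, 49.02, 49.4 and 55.7 CPM in ArKI caput, and at 3.34 to 4.95 CPM in WT IS. The ArKI segments still did not overlap, but the difference went from -3.86 in WT to -1.04 ± 0.12 (interaction 2.82 ± 0.21, adjusted p = 8.8e-09) with the IS level above that of WT. The ArKI difference lay close to 2-fold and was lost in 2 fits without a sample. Ckb, the brain-type creatine kinase (chr12:111669355-111672338), was at 34.3, 23.9, 68.5, 39.4 and 45.6 CPM in ArKI IS and 29.3, 33.7, 26.6, 26.2 and 21.2 CPM in ArKI caput, where WT caput held 133 to 161 CPM. Its caput level was thus far lower in ArKI, without overlap with WT caput, and the WT difference of -1.94 became 0.66 ± 0.20 (interaction 2.60 ± 0.26, adjusted p = 4.3e-06).

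Alox5, the lipoxygenase that starts leukotriene synthesis (chr6:116410071-116461178), was at 3.301, 3.65, 4.86, 4.44 and 4.49 CPM in ArKI IS and 7.84, 4.84, 8.51, 8.79 and 9.07 CPM in ArKI caput, against 29.03 to 38.5 CPM in WT caput. Its caput level was lower than in WT, its ArKI segments overlapped by caput replicate 2, and its difference went from -3.37 to -0.97 ± 0.16 (interaction 2.40 ± 0.23, adjusted p = 7.7e-08). Ripk3, the kinase of necroptosis, was at 20.1, 21.6, 16.1, 19.1 and 16.7 CPM in ArKI IS and 19.5, 29.04, 23.1, 30.99 and 20.7 CPM in ArKI caput, both above WT, where IS held 0.572 to 1.74 and caput 3.78 to 9.96 CPM. The ArKI segments overlapped, and the interaction was 2.35 ± 0.38 (adjusted p = 1.7e-04). Fam189a1 (2.68), the transporter Slc6a17 (2.54), Ccdc48 (now Efcc1, 2.41) and Trnp1 (2.17) had the other interactions among the 8 largest at 10 CPM or more in a group.

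**Figure D4:**
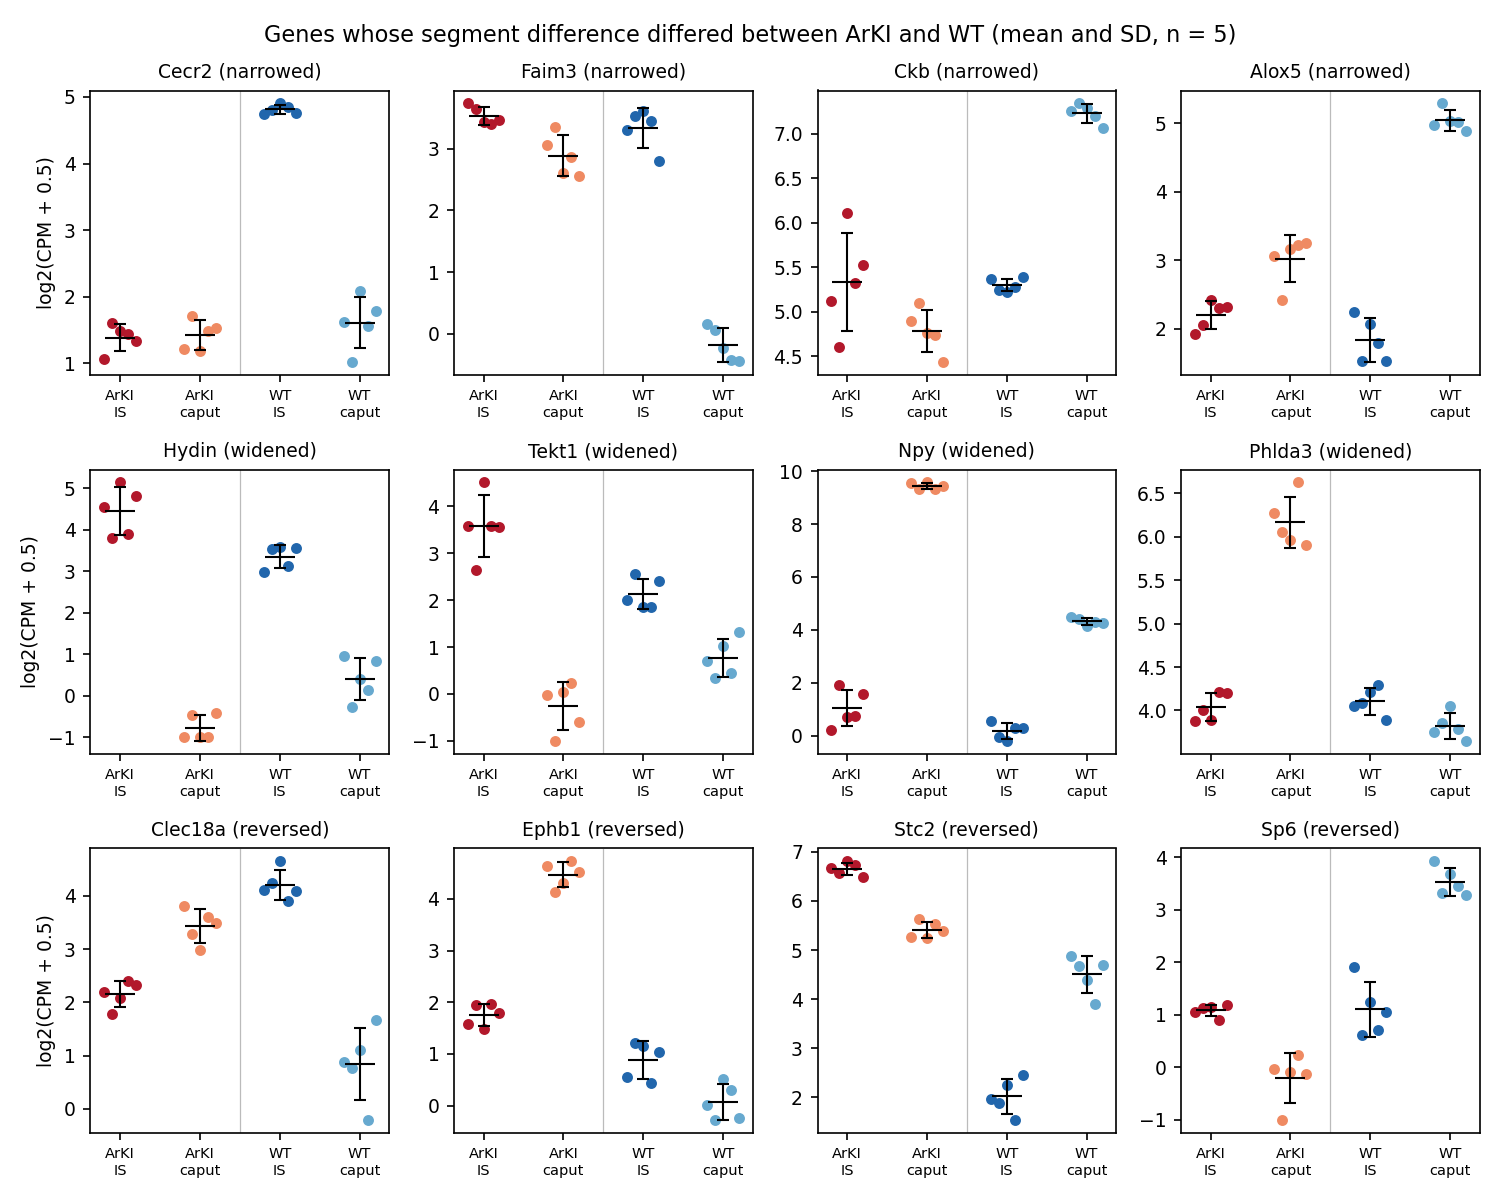
Levels (log2 of CPM + 0.5, vertical) of 12 genes in the 5 samples of each of the 4 groups (points), with mean and SD (bars). Cecr2 and Faim3 differ between segments in WT far more than in ArKI, Hydin and Npy more in ArKI, and Clec18a, Ephb1, Stc2 and Sp6 have opposite orders in the 2 genotypes.

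Towards IS, 137 differences widened. Hydin, an axonemal protein of the central pair (chr8:110266968-110610253), was at 22.97, 13.5, 34.7, 14.5 and 27.6 CPM in ArKI IS and 0, 0.231, 0, 0 and 0.247 CPM in ArKI caput, against 7.36 to 11.4 and 0.327 to 1.44 CPM in WT. The ArKI IS samples were all above WT IS and the ArKI caput samples below WT caput. Its difference was 7.85 ± 0.49 (adjusted p = 1.3e-11) in ArKI and 3.43 in WT, an interaction of 4.42 ± 0.91 (adjusted p = 0.002) that voom did not call. Tekt1, a tektin of ciliary microtubules (chr11:72344717-72362442), was at 11.5, 5.76, 22.3, 11.4 and 11.3 CPM in IS and 0.482, 0, 0.532, 0.683 and 0.165 CPM in caput, and differed by 4.85 ± 0.40 in ArKI and 1.68 in WT (interaction 3.18 ± 0.62, adjusted p = 0.001). Lrrc23 (3.12), 4933430H15Rik (now Lrrc71, 3.05), Vwa3a (2.93) and Ubxn10 (2.93) had interactions of like size. Voom did not call those of Lrrc23 and Ubxn10, and 2 fits without a sample lost that of Lrrc23. In each of Hydin and Tekt1 IS replicate 3 was the highest and replicate 2 the lowest IS sample.

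With Adcy1 and Mt3 these were the 8 genes with the largest interactions towards IS at 10 CPM or more in a group. Adcy1, a calmodulin-stimulated adenylyl cyclase (chr11:7063433-7178506), was at 6.601, 5.76, 18.4, 11.4 and 11.2 CPM in ArKI IS and 0.482, 0.461, 0.355, 0.427 and 0.412 CPM in ArKI caput. It was not called in WT (0.50) and differed by 4.62 ± 0.34 in ArKI (interaction 4.12 ± 0.52, adjusted p = 4.3e-06). Mt3, a metallothionein, was at 9.77, 4.64, 17, 10.2 and 9.81 CPM in IS and 1.69, 0.922, 1.33, 1.54 and 0.66 CPM in caput, a difference of 3.04 ± 0.28 in ArKI beside 0.18 in WT (interaction 2.86 ± 0.37, adjusted p = 8.6e-06). For both, ArKI caput was low in all 5 samples and IS replicate 3 was again the highest. Cftr, the chloride and bicarbonate channel of the epididymal epithelium (chr6:18170687-18322770), widened without that library standing out. It was at 176, 183, 205, 216 and 186 CPM in IS and 3.98, 4.15, 8.599, 6.06 and 6.35 CPM in caput, differing by 4.97 ± 0.13 in ArKI and 3.83 in WT (interaction 1.14 ± 0.19, adjusted p = 2.5e-04).

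Over all 137 genes that widened towards IS, the median ArKI minus WT difference was 1.01 in IS and -0.747 in caput, and without IS replicate 3 there were 122 such genes, 116 of them among the 137. Beside these genes, the 13 tested efferent duct and ciliated cell markers had 9 members higher in ArKI IS and 7 in WT IS, with 3 interaction calls, Hydin, Tekt1 and Rsph1 (1.36 ± 0.21). Their sum was 798.2, 617.5, 1142, 774.9 and 883.1 CPM in ArKI IS, with replicate 3 the highest, and 492.1 to 526.3 CPM in ArKI caput, against 599.1 to 667.3 and 399.1 to 445.7 CPM in WT. Foxj1, the master regulator of motile cilia, was at 60.2, 34.9, 125, 61.5 and 82.2 CPM in ArKI IS and 1.21, 3.69, 1.68, 1.28 and 1.24 CPM in ArKI caput, against 22.7 to 35.9 CPM in WT IS, with no interaction call (0.92, adjusted p = 0.51). The share of efferent duct in the dissected IS was not measured, and its part in the widened differences was not tested.

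Sperm genes also share axonemal parts. Of 25 tested sperm and late spermatid transcripts 13 were higher in ArKI caput and 2 in ArKI IS, against 23 and 0 in WT. Their median segment difference was -2.69 in ArKI and -2.18 in WT, and of the 25 only Meig1 and Spata18 had an interaction call. Their sum was 72.1 to 98.8 CPM in ArKI IS and 115.9 to 201.7 CPM in ArKI caput, and 91.4 to 197.1 CPM in WT IS and 424.3 to 641.8 CPM in WT caput. The ArKI caput count was 9 to 16 in the fits that left out a sample. With the ArKI samples fitted alone it was 5, since the filter on low counts then removed the other 8 genes. Pgk2 (-4.94), Smcp (-4.71), Odf1 (-4.59) and Oaz3 (-4.48), all products of late spermatids, were higher in ArKI caput, whereas Meig1 (2.44) and Spata18 (2.07) were higher in ArKI IS after being higher in caput in WT, a WT call that 10 of the 20 fits without a sample lost for Meig1. The part of these transcripts in the widened and reversed differences was not tested.

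**Figure D5:**
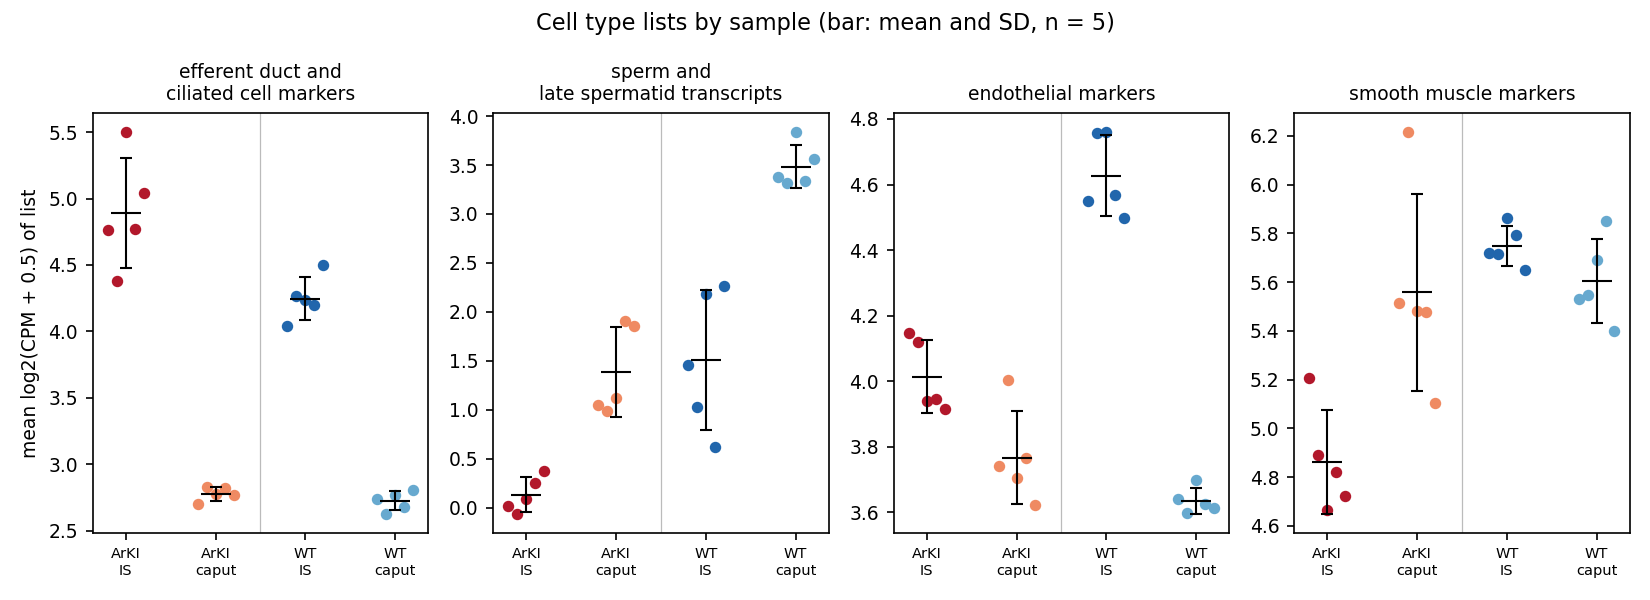
Mean log2(CPM + 0.5) of 4 marker lists in each of the 5 samples of the 4 groups (points), with mean and SD (bars). Replicate 3 of ArKI IS is the highest point for the ciliated list, sperm transcripts are lower in ArKI caput than in WT caput, and the endothelial and smooth muscle lists differ between segments unequally in the 2 genotypes.

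Of the differences that widened towards caput in genes at 10 CPM or more in a group, that of Npy had the largest interaction. Npy, which encodes neuropeptide Y (chr6:49822710-49829507), was at 0.66, 3.23, 1.14, 1.195 and 2.48 CPM in ArKI IS and 747, 646, 763, 640.3 and 696 CPM in ArKI caput, while WT caput held 17.4 to 21.7 CPM and WT IS 0.372 to 0.965 CPM. All ArKI caput samples were high and close together, and far above WT caput. The difference was -8.61 ± 0.15 (adjusted p = 1.4e-20) in ArKI and -4.89 in WT, an interaction of -3.72 ± 0.51 (adjusted p = 4.1e-05). Phlda3, a repressor of AKT signalling induced by p53 (chr1:135766085-135769134), was at 14.3, 15.6, 14.3, 18.1 and 17.96 CPM in IS and 76.6, 65.9, 62.05, 98.1 and 59.5 CPM in caput. It appeared in ArKI, with -2.18 ± 0.13 beside 0.29 in WT (interaction -2.47 ± 0.19, adjusted p = 1.9e-08). Sox7, a SOX-F transcription factor, was at 3.301, 3.79, 1.86, 2.73 and 2.48 CPM in IS and 14.5, 11.3, 12.1, 14.3 and 15.01 CPM in caput, and appeared likewise (interaction -2.41 ± 0.29, adjusted p = 1.8e-06).

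Heyl, a Notch effector repressor (chr4:123233556-123249870), was at 3.43, 4.08, 4.28, 3.93 and 3.31 CPM in ArKI IS and 52.6, 63.2, 38.4, 43.1 and 49.8 CPM in ArKI caput, without overlap. It differed by -3.68 ± 0.20 in ArKI and -1.35 in WT (interaction -2.33 ± 0.32, adjusted p = 4.0e-05). The antisense gene 5730457N03Rik (now Evx1os, -2.64), BC048546 (-2.62) and Gm12504 (a pseudogene of Ptma, -2.55) also had large interactions. Evx1 overlaps the first of them on the opposite strand, and reads of the 2 genes could not be told apart. Over all 61 genes the median ArKI minus WT difference was -0.631 in IS and 0.627 in caput.

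Contractile genes of smooth muscle were higher in ArKI caput. Of 10 tested, 8 were higher in ArKI caput and 1, Actg2, in IS, against 0 and 1 in WT, with medians of -1.4 and -0.394. With no fold limit 9 were called higher in caput in ArKI and 4 in WT. Only Lmod1 had an interaction call (-1.06 ± 0.22, adjusted p = 0.0015), and 5 of the 20 fits that left out a sample lost it, whereas 4 members had one without IS replicate 1 and at an adjusted p below 0.05. Without single samples the ArKI caput count of the list was 7 or 8. Acta2, the smooth muscle actin, was at 165, 113, 91.3, 109.8 and 89.8 CPM in ArKI IS and 337, 545, 334, 349.7 and 232 CPM in ArKI caput, where replicate 2 was the highest. Its difference was -1.65 ± 0.19 in ArKI and -0.62 in WT, and its interaction of -1.03 (adjusted p = 0.013) did not pass. Cnn1 (-1.91) and Myocd (-1.71) had like differences in ArKI. Actg2, the enteric actin, ran against the list at 3030, 2591, 2974, 3058 and 2726 CPM in IS and 53.6, 182, 154, 78.4 and 48.9 CPM in caput (4.81 ± 0.48), as in WT (4.68). Without Actg2 the list summed to 268.2 to 456.5 CPM in ArKI IS, 671.2 to 1497 in ArKI caput, 593.4 to 694.3 in WT IS and 813.3 to 1019 in WT caput. All ArKI IS samples thus lay below all WT IS samples, while the caput ranges overlapped. Fibroblast and collagen markers summed to 1281 to 1757 CPM in 4 of the ArKI caput samples and to 3005 CPM in replicate 2. The amount of muscle coat left on each dissected segment was not measured.

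The 16 reversed genes were 10 that turned towards IS and 6 that turned towards caput. Clec18a, a C-type lectin (chr8:111069496-111092424), was at 4.09, 2.95, 3.71, 4.78 and 4.49 CPM in ArKI IS and 13.5, 9.22, 7.45, 11.7 and 10.7 CPM in ArKI caput, and at 14.4 to 24.6 CPM in WT IS against 0.366 to 2.69 CPM in WT caput. Neither genotype's segments overlapped, in opposite orders, with -1.40 ± 0.22 in ArKI and 3.64 in WT (interaction -5.03 ± 0.33, adjusted p = 5.0e-10). Ephb1, an ephrin receptor (chr9:101922128-102354693), was at 2.51, 3.37, 2.29, 3.41 and 2.95 CPM in ArKI IS and 24.5, 17.1, 19.4, 25.96 and 22.6 CPM in ArKI caput, and at 0.849 to 1.83 CPM in WT IS and 0.327 to 0.935 CPM in WT caput. It thus turned mainly by its level in ArKI caput, with -2.93 ± 0.17 beside 1.29 (interaction -4.22 ± 0.36, adjusted p = 1.3e-08). Ccdc147, now Cfap58, turned the same way (-1.05 ± 0.21 beside 1.79), but its ArKI difference lay close to 2-fold and was lost in 3 fits that left out a sample.

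Stc2, a secreted glycoprotein hormone, stanniocalcin (chr11:31359441-31370061), turned towards IS. It was at 101, 94.6, 111, 106 and 89.9 CPM in ArKI IS and 38.1, 48.9, 37.6, 45.4 and 41.2 CPM in ArKI caput, and at 2.405 to 5.01 CPM in WT IS and 14.5 to 28.7 CPM in WT caput, so that both ArKI segments exceeded WT and IS did so the most. The difference was 1.26 ± 0.12 in ArKI and -2.62 in WT (interaction 3.89 ± 0.23, adjusted p = 6.0e-10). Sp6, a zinc finger transcription factor (chr11:97013569-97024739), was at 1.58, 1.69, 1.71, 1.36 and 1.77 CPM in ArKI IS and 0.482, 0, 0.443, 0.683 and 0.412 CPM in ArKI caput, against 9.25 to 14.7 CPM in WT caput. Its ArKI caput samples were all near 0, and the interaction was 4.46 ± 0.44 (adjusted p = 1.2e-07). Cacna1h, a T-type calcium channel (2.84), overlapped between the ArKI segments, and its ArKI call was lost without IS replicate 3. Among the 10 genes that turned towards IS the median ArKI minus WT difference was 0.663 in IS and -1.96 in caput, and for 8 of them the caput change was the larger one.

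Ion and water transport, which concentrates sperm and acidifies the lumen, was divided between the segments. Of 26 tested genes 7 were higher in ArKI IS and 11 in ArKI caput, against 6 and 6 in WT. With no fold limit 11 and 12 were called in ArKI and 9 and 10 in WT. The ArKI caput count was 9 to 11 in the fits that left out a sample. The interaction was called towards IS for Cftr and for the anion exchanger Slc4a9 (3.08 ± 0.65, adjusted p = 0.0016), and for 0 towards caput. The sodium/proton exchanger Slc9a3 (4.51) was higher in ArKI IS, and the carbonic anhydrase Car4 (-3.89) in ArKI caput. The Car4 call was lost with voom (-3.13, adjusted p = 0.064) and when the ArKI samples were fitted alone (adjusted p = 0.0104). Slc4a9 was at means of 1.97 CPM in ArKI IS and 0.187 CPM in ArKI caput and was not called in WT (0.08).

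Of 38 glutathione and antioxidant genes 2 were higher in ArKI IS and 5 in ArKI caput, against 1 and 6 in WT. Over all tested genes 9.64% were higher in ArKI IS and 10.1% in ArKI caput, so these counts do not set the list apart. Ggt7 (3.19) was higher in IS, and Gpx2 (-6.88), the glutathione-cleaving Ggt1 (-2.90) and Gstm1 (-1.53) were higher in caput. Gstm5 lost its WT caput excess, from -1.23 to -0.16 (interaction 1.07 ± 0.22, adjusted p = 0.0026), a change under 2-fold without IS replicate 3 (0.87). Among 21 retinoid genes the binding proteins Crabp1 (7.75) and Rbp2 (4.85) were the largest towards ArKI IS and Rarres1 (-3.56) towards caput. Rbp2 was not called in WT (-0.20) and had an interaction of 5.05 ± 0.66 (adjusted p = 6.1e-06). The retinol uptake receptor Stra6 had one of 1.40 ± 0.25 (adjusted p = 3.0e-04), with neither segment difference called.

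Genes of the integrated stress response, which is switched on by amino acid shortage and misfolded protein, were called more often towards caput than towards IS in both genotypes. Of 25 tested, 9 were higher in ArKI caput and 2 in ArKI IS, against 10 and 2 in WT, with no interaction call. Fgf21 (-4.04), Phgdh (-3.29) and Psat1 (-2.23) were higher in caput and the lipoprotein receptor Vldlr (2.24) in IS. Of 12 genes of local androgen metabolism 3 were higher in IS in each genotype. Srd5a1, the enzyme that makes dihydrotestosterone, differed by 2.08 ± 0.14 in ArKI and 2.93 in WT, Rdh16 by 5.27 and Akr1c18 by 3.26 in ArKI.

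In the lists for the other cell types of the duct the numbers of calls were close between genotypes, whereas some levels were not. Over all tested genes 9.64% were higher in ArKI IS and 10.1% in ArKI caput, against 10.2% and 11.4% in WT. Narrow and clear cell markers had 2 of 8 higher in ArKI IS and 4 in ArKI caput, against 1 and 4 in WT, with Car2 (1.99) higher in IS and Foxi1 (-1.95) and Atp6v1b1 (-1.63) in caput. Of 9 basal cell markers 3 were higher in ArKI IS (Krt17 at 2.14, Itga6 at 1.49, Cldn1 at 1.46) and 1, Krt5 (-1.26), in ArKI caput, against 4 and 0 in WT. The basal markers summed to 435.1 to 472.5 CPM in ArKI IS and 548.1 to 591.9 CPM in WT IS, without overlap. Their caput sums overlapped, at 342.4 to 377.6 CPM in ArKI and 330.9 to 386.3 CPM in WT. Their median difference was 0.453 in ArKI and 0.933 in WT, with no interaction call. Of 9 MHC class II genes 3 were higher in ArKI IS and 2 in WT IS, with H2-DMb2 (4.16) the largest. They summed to 412.9 to 728.6 CPM in ArKI IS and 259.6 to 439.4 CPM in ArKI caput. The WT sums were 302.1 to 398.1 CPM in IS and 168.7 to 217.5 CPM in caput, below ArKI in each segment without overlap. Of 13 fibroblast and collagen markers 1, Pdgfra (2.80), was higher in IS in each genotype. Of 5 tested testis somatic cell markers, the steroidogenic Cyp11a1 was higher in ArKI IS (4.74, against 1.39 in WT, interaction 3.35 ± 0.59, adjusted p = 2.2e-04) and Cyp17a1 in ArKI caput (-3.26). The tested members other than Sox9 summed to only 7.426 to 11.27 CPM in ArKI IS and 4.244 to 6.828 CPM in WT IS. Cyp11a1 was thus at a low level in IS, and lower still in caput.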

How the data were processed

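RNA of dissected IS and caput was sequenced as 50-base single-end reads. The authors aligned the reads to mm10 with STAR and counted uniquely mapped reads per RefSeq gene with Subread 1.5.1, and the deposited table holds these counts. The labels and the methods name different library kits, so whether counting used strand is not given in the sources used here. edgeR 4.0.16 (R 4.3.3) was run on the counts as deposited: TMM scaling, genes kept by filterByExpr (at least 10 counts in a group's worth of samples and 15 in all), a robust quasi-likelihood fit of 4 group means over 20 samples, and Benjamini-Hochberg adjustment over 14329 of 23337 genes. Contrasts were IS minus caput in ArKI, the same in WT, and their difference. limma 3.58.1, DESeq2 1.42.0, other scalings, filters and thresholds, a replicate block and leaving out each sample were alternatives. Scripts were tested on simulated data.

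Samples were grouped by their labels. Both segments came from 5 mice of each genotype, but the sources do not say which IS and caput samples share a mouse or that equal numbers do, and p-values measure the spread between these samples. The 6 testis samples, from another sequencing batch, were not used here. The members and gene lists were chosen with earlier results of these data known. Genes were named by these rules: the 10 largest called, non-overlapping ArKI differences in each direction with a mean of 10 CPM or more in the higher segment; the 8 largest interactions of each narrowed and widened direction and the 6 largest reversed, with 10 CPM or more in a group; the 5 genes with the most reads in each ArKI segment; and up to 4 called and 3 interaction-called members per list. The targeted gene and some genes that these rules select are not reported here. Cst11, Crisp1, Slc9a4, Ros1, Fgfr2 and Myc were named beyond these rules after their values were seen. Coordinates are those of GRCm38, from RefSeq. Precision follows depth: an empty ArKI group was set at 3 counts, and intervals of count ratios are exact and cover counting error only.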

Additional observations from a re-analysis of the deposited data

Results flagged for a closer look

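Dixon's test was run on 213 groups of 5 samples, and 11 had a sample far from the others, which is about the 1 in 20 that chance flags. In ArKI caput these were replicate 3 for 5830403L16Rik (51.33 CPM), replicate 2 for Kdr (23.28 CPM), Foxj1 (3.688 CPM) and Wfdc16 (146.8 CPM), and replicate 2 for the summed macrophage and T cell markers (367.9 CPM). In ArKI IS they were the low replicate 2 for Tecta (31.48 CPM) and Ntsr1 (20.38 CPM) and the high replicate 1 for Eng (29.57 CPM). In WT IS they were Iyd (4.585 CPM), 5830403L16Rik (5553 CPM) and Ripk3 (1.738 CPM). Of the 11, 4 fell on ArKI caput replicate 2, the shallowest of these libraries, and whether depth or the tissue taken set them was not tested.

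The segment difference itself differed between ArKI and WT, by the interaction term of the edgeR fit at an adjusted p below 0.01 and over 2-fold, for 57 of the genes given above. The values are the ArKI difference minus the WT one on the log2 scale. Genes that had been higher in WT IS and narrowed were Expi (-5.38), Faim3 (-3.83), Cecr2 (-3.42), Odz4 (-3.06), Nkx6-1 (-2.53), Dkkl1 (-1.98), Alox12e (-1.90), Dock10 (-1.84), Tead2 (-1.83), Kdr (-1.47), Flt1 (-1.21) and Eng (-1.07). Higher in WT caput and narrowed were Kcnc4 (2.82), Fam189a1 (2.68), Ckb (2.60), Slc6a17 (2.54), Ccdc48 (2.41), Alox5 (2.40), Ripk3 (2.35), Trnp1 (2.17), Wfdc3 (2.11), Gstm5 (1.07) and Bsph1 (1.03). Towards IS, Rbp2 (5.05), Hydin (4.42), Adcy1 (4.12), Cyp11a1 (3.35), Tekt1 (3.18), Lrrc23 (3.12), Slc4a9 (3.08), 4933430H15Rik (3.05), Vwa3a (2.93), Ubxn10 (2.93), Mt3 (2.86), Rsph1 (1.36) and Cftr (1.14) widened. Towards caput, Npy (-3.72), 5730457N03Rik (-2.64), BC048546 (-2.62), Gm12504 (-2.55), Phlda3 (-2.47), Sox7 (-2.41), Heyl (-2.33), Wfdc16 (-1.78), Wfdc6b (-1.34), Prom2 (-1.08) and Lmod1 (-1.06) widened. Opposite calls in the 2 genotypes were made for Clec18a (-5.03), Sp6 (4.46), Ephb1 (-4.22), Stc2 (3.89), Meig1 (3.47), Spata18 (3.20), Cacna1h (2.84) and Ccdc147 (-2.84). Neither segment difference was called for Stra6 (1.40) and Lcn6 (1.21). The ArKI call of Cacna1h was lost without IS replicate 3, and that of Ccdc147, close to the 2-fold limit, when any 1 of 3 samples was left out.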

How the results depend on the processing

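Over all genes, counts of calls moved by less than 1.5 times under the other scalings, filters, tools and fits that were run. With all samples but 1, ArKI calls ranged from 1324 to 1449 higher in IS and from 1412 to 1503 in caput, interaction calls from 238 to 307 towards IS and from 151 to 190 towards caput, and reversed genes from 13 to 20. Counts within lists moved more. With the ArKI samples fitted alone, cystatins higher in ArKI IS went from 5 to 3 and sperm transcripts higher in ArKI caput from 13 to 5, and with the WT samples alone, transcription factors higher in WT IS went from 8 to 5; in each case the filter on low counts, applied to fewer samples, had removed the missing genes, and no tested gene lost its call. Over all genes the thresholds moved more. At an adjusted p below 0.05 with the fold limit, 280 interaction calls were towards caput, 128 genes narrowed from higher in IS and 100 widened towards caput. With no fold limit there were 4076 and 3996 ArKI calls and 4359 and 4278 WT calls towards IS and caput, 606 and 566 interaction calls, 6089 kept, 304 and 292 narrowed, 276 lost, 268 and 219 widened, 264 appeared, 83 reversed and 2739 undecided. No named gene reversed. DESeq2 gave no adjusted p for Lcn8, Lcn9 and 5830403L16Rik in ArKI, and voom did not call Spint4, Wfdc13, Gm14316, Defb23 and Car4; the cause was not tested.

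The replicate numbers were not taken to pair the samples. Deviations of same-numbered IS and caput samples correlated from -0.0818 to 0.197 in ArKI and from -0.00118 to 0.166 in WT, so not every pair was over 0.1. Of the 5 samples, 2 in ArKI and 3 in WT correlated best with their own number, a hint from the data and not from the design. With the replicate block 1377 and 1451 genes were called in ArKI, 264 and 181 for the interaction, 2075 were kept and 15 reversed. Among named genes it ended the interaction call of Lcn6. Genes under about 10 counts are the limit of depth here, and a level of 0 allows up to 3 counts.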
